A study of Mus musculus with 5 samples.

Results

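The genes described here are 5 of the 51912 rows of the authors' deposited table, taken by their symbols: n-R5-8s1, mt-Rnr1, mt-Rnr2, Lars2 and Mir6236. The first is a nuclear gene for the short ribosomal RNA of the large subunit, mt-Rnr1 and mt-Rnr2 are the ribosomal RNA genes of the mitochondrial genome, Lars2 is a nuclear protein-coding gene, and Mir6236 is annotated as a microRNA gene. They were chosen by symbol with the authors' fold changes and calls of stroke against sham in view, so those values are given as a description. RNA sequencing compared C57BL/6 mice after a sham operation (2 libraries) with mice after ischemic stroke (3 libraries). In the stroke mice a filament closed the middle cerebral artery for 30 minutes, blood flow in the brain had to drop by at least 80%, and motor function was scored after 24 hours. No transgene or gene deletion is named for either group. Age, sex, the tissue taken, the time of sampling, and whether each library is 1 animal or a pool were not given in the sources used here, so the spread between libraries may be technical. Libraries came from a stranded kit that captures polyadenylated RNA, per the labels' protocols. All 16 markers checked for brain cell types and blood had reads, with Snap25, a neuronal synaptic protein, at 2485 CPM, counts per 1000000 of the summed means.

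Most cytosolic ribosomal RNA is cut from a long precursor that RNA polymerase I makes in the nucleolus from many repeated gene copies. Mitochondrial ribosomal RNAs are cut from a polycistronic transcript in which transfer RNAs mark the ends of the other genes, and they carry only short A tails. Lars2 encodes the enzyme that charges mitochondrial transfer RNA with leucine, and so acts in the same translation system as mt-Rnr1 and mt-Rnr2. Capture of poly(A) RNA is meant to leave ribosomal RNA behind, which does not apply to the message of Lars2, a protein-coding gene. How reads on the ribosomal RNA genes came through that step was not tested. None of the genes described was compared with the sequence of the ribosomal RNA precursor.

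Windows of 30 bases from both mitochondrial ribosomal RNA genes show what their A-rich stretches look like, since the libraries were made by capture of poly(A). They come from mt-Rnr1 (chrM:693-722) and mt-Rnr2 (chrM:1476-1505), on the plus strand of GRCm38 in GENCODE M21, and hold the longest run of A of each gene, in capitals.
mt-Rnr1 window: tcagcaaaccctAAAAAggtattaaagtaa
mt-Rnr2 window: tttaaacttgctAAAAAAAcaacaaaatca
The longest run of A was 7 bases in mt-Rnr2, 6 in the main Lars2 transcript, 5 in mt-Rnr1 and 3 in n-R5-8s1. Bases A made up 38.2% of mt-Rnr2 and 37.8% of mt-Rnr1, against 23.6% of n-R5-8s1. These are properties of the letters only.

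In the authors' deposited table, 4 of the 5 genes were called at an adjusted p below 0.05, 3 higher and 1 lower in stroke. Calls covered 1.56% of the 17420 genes with an adjusted p, with 0.775% higher and 0.786% lower, and nothing is read from the members' count since the same contrast chose them. Lars2, Mir6236 and n-R5-8s1 were higher in stroke. Both mitochondrial ribosomal RNAs had negative fold changes, and mt-Rnr2 was called while mt-Rnr1 was not. The genes covered very different levels. Per kilobase of transcript the mean normalized count over the 5 libraries was 505364 for mt-Rnr2, 334504 for mt-Rnr1, 39197 for Mir6236, 2449 for Lars2 and 374 for n-R5-8s1. Before division by length, Mir6236 lay below Lars2, at 4821 against 9537. Division reversed this order, since the annotated gene of Mir6236 has 123 bases and the main Lars2 transcript 3894. Where the reads lay along each transcript cannot be seen, so these values give no firm order of levels. The means also pool groups that differed in opposite directions. In the fitted group means per kilobase, mt-Rnr2 was at 96631 in stroke and 1118463 in sham, mt-Rnr1 at 85265 and 708362, Mir6236 at 59559 and 8654, Lars2 at 3741 and 511, and n-R5-8s1 at 559 and 97.6. Whether mt-Rnr2 lay above mt-Rnr1 in each library could not be seen, since reads per library were recovered for 3 of the 5 genes only.

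**Figure D1:**
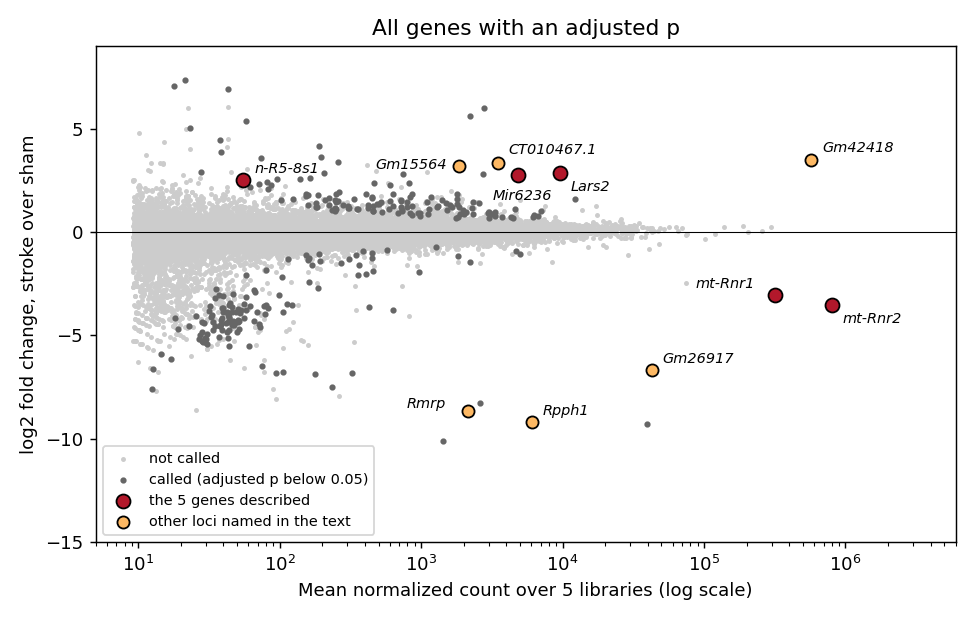
Log2 fold change, stroke over sham (vertical axis), against the mean normalized count over 5 libraries (horizontal axis, log scale) in the authors' deposited table. Each point is 1 of 17420 genes with an adjusted p, with the 5 genes described in red; mt-Rnr1 and mt-Rnr2 lie at the far right and below 0, while Lars2, Mir6236 and n-R5-8s1 lie above 0.

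The nuclear ribosomal RNA gene n-R5-8s1 (ENSMUSG00000065922) gave few reads. Its raw reads were 140, 89 and 54 in stroke libraries 1, 2 and 3, and 12 in each sham library. Divided by the size factors, these were 121, 78.7 and 48.4 normalized reads in stroke, 12.7 in the deeper sham library and 16.4 in the shallower. Libraries are numbered by size factor, which nothing ties to the replicate numbers of the labels. The lowest stroke library was 2.96-fold above the highest sham library, and within stroke the highest was 2.50-fold above the lowest. The mean was 82.7 ± 36.5 (SD, n = 3) in stroke and 14.5 (n = 2) in sham. In the authors' deposited table the log2 fold change was 2.52 (SE 0.61), or 5.72-fold. Its call was lost when tested against a fold of 1.5. Near-identical copies of this gene lie in the ribosomal DNA repeats, and how reads with several alignments were counted is not given in the sources used here, so its level is uncertain. As background, in 10.5% of the 4097 genes with reads per library and a mean of at least 20, every stroke library lay above both sham libraries.

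Of 356 rows annotated as ribosomal RNA, 70 had a read and 4 had a mean of at least 10: n-R5-8s1, mt-Rnr1, mt-Rnr2 and CT010467.1. CT010467.1 (ENSMUSG00000106106, chr17:39846353-39848827, minus strand) has no symbol in the deposited table and is named by GENCODE M21. Its normalized reads were 3908, 7108 and 5277 in stroke libraries 1, 2 and 3, 743 in the deeper sham library and 317 in the shallower. The groups did not overlap, and the lowest stroke library was 5.26-fold above the highest sham library. Its log2 fold change in the authors' deposited table was 3.35 (SE 0.40). On the opposite strand and wholly inside it lies Gm42418 (chr17:39846958-39848788, plus strand), a non-coding locus known for collecting reads of the ribosomal RNA precursor. Gm42418 had a mean of 573593 normalized counts and its log2 fold change was 3.50 (SE 0.36), as the authors' deposited table has it. That fold change and mean give fitted group means of 902909 in stroke and 79620 in sham, 3.44% of the summed means of stroke and 0.297% of those of sham. Reads on 1 strand of this locus cannot be told from reads on the other unless the counting used strand, and the strand setting is not given in the sources used here. AY036118 was listed at 0, and Rn45s and Rn18s-rs5 have no row under those symbols.

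Not every locus that can collect such reads was higher in stroke. Gm26917, the non-coding gene next to Gm42418 on the same strand (chr17:39843013-39846341), was called lower in the authors' deposited table, at -6.67 (SE 1.98) on the log2 scale. Its fitted group means were 1035 in stroke and 105324 in sham. Its reads were not split by library here, so the share of each sham library is unknown. The dispersion behind its standard error was 2.26, against 3.14 for Rmrp, 3.51 for Rpph1 and 0.0761 for Gm42418. Its call was lost when p-values were adjusted over every gene that has one, and also among genes at 5 CPM or more. Of the 6 tested loci in a list of ribosomal RNA collectors and other short non-coding RNAs, Gm42418 was called higher, while Gm26917, Rmrp and Rpph1 were called lower. In the authors' deposited table the Y RNA genes Rny3, at -5.20 (SE 2.16), and Rny1, at -4.02 (SE 2.60), were the uncalled ones. The median of the 6 log2 fold changes was -5.93, against -0.02 over all genes tested. It reflects the make-up of the list, where Rmrp, Rpph1, Rny3 and Rny1 are the other short non-coding RNAs. CT010467.1 and Gm15564, a non-coding gene described below, are not in the list and were at 3.35 and 3.21. That median includes Rmrp and Rpph1, whose sham reads came almost wholly from the shallower sham library: without it, their log2 ratios of stroke to sham on normalized reads + 1 turned from -8.56 and -9.15 to 1.76 and 3.10.

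Lars2 (ENSMUSG00000035202, chr9:123366927-123462666, plus strand) had 10316, 16900 and 16489 normalized reads in stroke libraries 1, 2 and 3, 1653 in the deeper sham library and 2326 in the shallower. The stroke libraries lay far above both sham libraries, and stroke library 1 was the lowest of the 3. The mean was 14568 ± 3689 (SD, n = 3) in stroke and 1990 (n = 2) in sham, and the lowest stroke library was 4.44-fold above the highest sham library. The log2 fold change was 2.87 (SE 0.30), or 7.32-fold, in the authors' deposited table. For Lars2, 2 of 15 fold changes altered on purpose were also matched by a set of reads, so its split among libraries is less certain than those of Mir6236, CT010467.1 and Gm15564, where 0 of 15 were.

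Mir6236 (ENSMUSG00000098973) lies on the same chromosome. Its normalized reads were 5142, 9259 and 7575 in stroke libraries 1, 2 and 3, 834 in the deeper sham library and 1296 in the shallower. The groups did not overlap, with the lowest stroke library 3.97-fold above the highest sham library. The mean was 7325 ± 2070 (SD, n = 3) in stroke and 1065 (n = 2) in sham, and the log2 fold change in the authors' deposited table was 2.78 (SE 0.32), or 6.88-fold. These were not small RNA libraries, so the values count fragments on the annotated gene of 123 bases and give no level of the mature microRNA. With n-R5-8s1, all 3 members with reads per library had every stroke library above both sham libraries, against the 10.5% given above. Nothing is read from this, since the members were chosen with this contrast in view. Nearly all of the 4097 genes behind that share had a mean of at most 150, far below Lars2 and Mir6236.

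**Figure D2:**
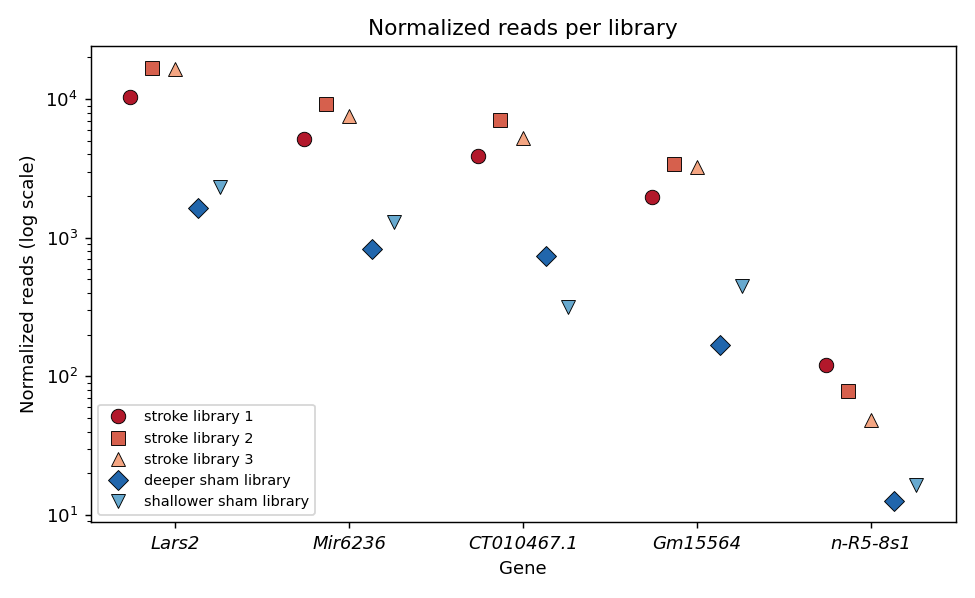
Normalized reads (vertical axis, log scale) of 3 described genes and of CT010467.1 and Gm15564 (horizontal axis), 1 point per library. All 3 stroke libraries (red) lie above both sham libraries (blue) for each gene; stroke library 1 is the lowest stroke library for every gene plotted except n-R5-8s1, where it is the highest.

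Lars2 and Mir6236 followed each other from library to library. The ratio of their normalized reads, not corrected for length, was 2.01, 1.83 and 2.18 in stroke libraries 1, 2 and 3, 1.98 in the deeper sham library and 1.79 in the shallower. It stayed within that range while Lars2 itself ran from 1653 to 16900. Likeness was measured as the root mean square difference of log2(normalized reads + 1) over the 5 libraries, after removing each gene's mean, among the 4097 genes. Mir6236 was the gene nearest to Lars2, and Lars2 the nearest to Mir6236, at 0.10. The next were Plaur, which encodes the urokinase receptor, at 0.33 from Lars2 and 0.26 from Mir6236, and the non-coding gene Gm15564, at 0.37 from each. The genes nearest to n-R5-8s1 were Rbm46, which encodes an RNA-binding protein, at 0.32, the protease gene Htra4 at 0.40 and D7Bwg0826e at 0.44. Lars2 and Mir6236 lay at 0.69 and 0.66 from n-R5-8s1. The ratio of Lars2 to n-R5-8s1 ran from 85.2 in stroke library 1 to 341 in stroke library 3, so the 3 genes higher in stroke did not share 1 profile within the stroke group. These are descriptions over 5 libraries. Above a mean of 150 reads per library were searched for and found for only 6 loci, Lars2 and Mir6236 among them. Nearly all genes compared thus had lower means. The difference between stroke and sham, in view when the members were chosen, enters the measure, so nothing is read from the ranking.

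Gm15564 (ENSMUSG00000086324, chromosome 16, minus strand) shares sequence with Lars2. The longest stretch identical in both main transcripts was 52 bases, at positions 3278 to 3329 of the 3894 bases of the main Lars2 transcript (chr9:123462048-123462099, plus strand, in its 3′ UTR) and at positions 179 to 230 of the 402 bases of the main Gm15564 transcript. The last 30 bases of it, as they stand in an exon of Gm15564 (chr16:35981745-35981774, minus strand, GRCm38), are shown because both genes hold them. Whether a read could be placed in 1 gene depends on its length, which was not given in the sources used here.
Gm15564: ttcacccactaatagggaacgtgagctggg
Gm15564 had 1978, 3385 and 3234 normalized reads in stroke libraries 1, 2 and 3, 169 in the deeper sham library and 452 in the shallower, without overlap between the groups. Its log2 fold change there was 3.21 (SE 0.42), from the authors' deposited table. The ratio of Lars2 to Gm15564 was between 4.99 and 5.21 in the stroke libraries, 5.14 in the shallower sham library and 9.76 in the deeper. Where along Lars2 the reads lay cannot be seen in a table of counts per gene, so the part of the shared stretch in its level was not tested. The ratio of Mir6236 to CT010467.1 was 1.32, 1.30 and 1.44 in stroke libraries 1, 2 and 3, 1.12 in the deeper sham library and 4.08 in the shallower.

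The genes beside Lars2 and Mir6236 on chromosome 9 were not called. The 3 nearest tested genes before Lars2 were Tmem158, Clec3b and Exosc7, for which the authors' deposited table has 0.70 (SE 0.35), 0.26 (SE 0.81) and -0.52 (SE 0.26) on the log2 scale. After Lars2 came Limd1, Sacm1l and Slc6a20a, at 0.10 (SE 0.27), -0.09 (SE 0.26) and -0.71 (SE 0.27). The nearest of them, Limd1, starts 16040 bases beyond the end of Lars2. Around Mir6236, Cspg5, Smarcc1 and Dhx30 before it and Elp6, Scap and Ptpn23 after it had log2 fold changes between -0.12 and 0.39, with Cspg5 18711 bases away. Among the other mitochondrial aminoacyl-tRNA synthetases, which do for other amino acids what Lars2 does for leucine, 0 of 21 were called by the authors' DESeq2 test and 0 had an unadjusted p below 0.05, against 1.56% and 10.5% of all tested genes. Their log2 fold changes ran from -0.43 to 0.37 with a median of -0.10, against 2.87 for Lars2. The most abundant, Gars and Kars, were at 0.37 (SE 0.20) and at 0.10 (SE 0.21). Both are among the 5 of 21 with a positive fold change (23.8%, against 47.2% of all tested genes).

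The mitochondrial ribosomal RNAs were the members with the most reads. The gene mt-Rnr2 (ENSMUSG00000064339, chrM:1094-2675, plus strand), the RNA of the large mitochondrial subunit, had a mean of 799485 normalized counts, 3.02% of the summed means. The gene mt-Rnr1 (ENSMUSG00000064337, chrM:70-1024, plus strand), that of the small subunit, had a mean of 319451, or 1.21%. On the log2 scale, the authors' deposited table has fold changes of -3.53 (SE 1.04) for mt-Rnr2 and -3.05 (SE 1.06) for mt-Rnr1. The fitted group means were 152870 in stroke and 1769408 in sham for mt-Rnr2, or 11.6-fold lower in stroke, and 81428 and 676486 for mt-Rnr1, or 8.31-fold lower. The call of mt-Rnr2 was lost when p-values were adjusted over every gene that has one. In the fitted means, mt-Rnr2 took 6.60% of the sham sum and 0.582% of the stroke sum.

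The standard errors of both mitochondrial genes were over 3 times those of Lars2 although their counts were far higher. The dispersion that gives these standard errors corresponds to a coefficient of variation between libraries of 0.791 for mt-Rnr2 and 0.805 for mt-Rnr1, against 0.226 for Lars2 and 0.244 for Mir6236. These values are not fully alike. In the rebuilt dispersion step both mitochondrial genes counted as outliers, whose dispersion is not drawn towards that of genes with a like mean. Those of Lars2 and Mir6236 were treated as drawn towards it. The median over the 5242 tested genes with a mean of at least 1000 was 0.182, and 0.572% of those genes had a dispersion as large as that of mt-Rnr2. Their counts were too large for whole reads per library to be recovered, but the dispersion limits how the reads can be split. If the 3 stroke libraries were equal, 1 sham library would hold 9.21% of the sham sum of mt-Rnr2 and 8.77% of that of mt-Rnr1. If the 2 sham libraries were equal, the stroke libraries would lie at their mean and 0.816 (mt-Rnr2) or 0.825 (mt-Rnr1) of it above and below. Over the splits tried that give the deposited dispersion, the lowest sham value stayed at least 1.69-fold above the highest stroke value for mt-Rnr2 and 1.16-fold for mt-Rnr1, a limit that rests on the rebuilt dispersion step and not on reads. Among the 4097 genes with reads per library, nearly all with a mean of at most 150, 17.3% had every stroke library below both sham libraries.

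Both ribosomal RNAs stood apart from most of the mitochondrial protein-coding genes. Next to the ribosomal RNAs, the uncalled transfer RNA genes mt-Tv and mt-Tl1 were also negative, at -2.30 and -3.09 on the log2 scale. Of the 7 mitochondrial protein-coding genes with an adjusted p, mt-Nd6, a complex I subunit gene on the other strand, was called lower in the authors' deposited table, at -1.08 (SE 0.32), and the other 6 lay between -0.09 and 0.30. The 3 with the largest means, mt-Co1, mt-Cytb and mt-Nd1, were at 0.26 (SE 0.26), 0.04 (SE 0.25) and 0.01 (SE 0.30). Per base, the fitted level of mt-Rnr2 was 5.27 times that of mt-Nd1, the nearest protein-coding gene downstream, in sham and 0.451 times in stroke. For mt-Rnr1 the same ratio was 3.34 in sham and 0.398 in stroke. The ratio of mt-Rnr2 to mt-Rnr1 per base was 1.58 in sham and 1.13 in stroke. The remaining 6 of 13 mitochondrial protein-coding genes, mt-Co2 and mt-Co3 among them, were listed with a mean below 1, so the table does not hold a full count of mitochondrial messages.

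**Figure D3:**
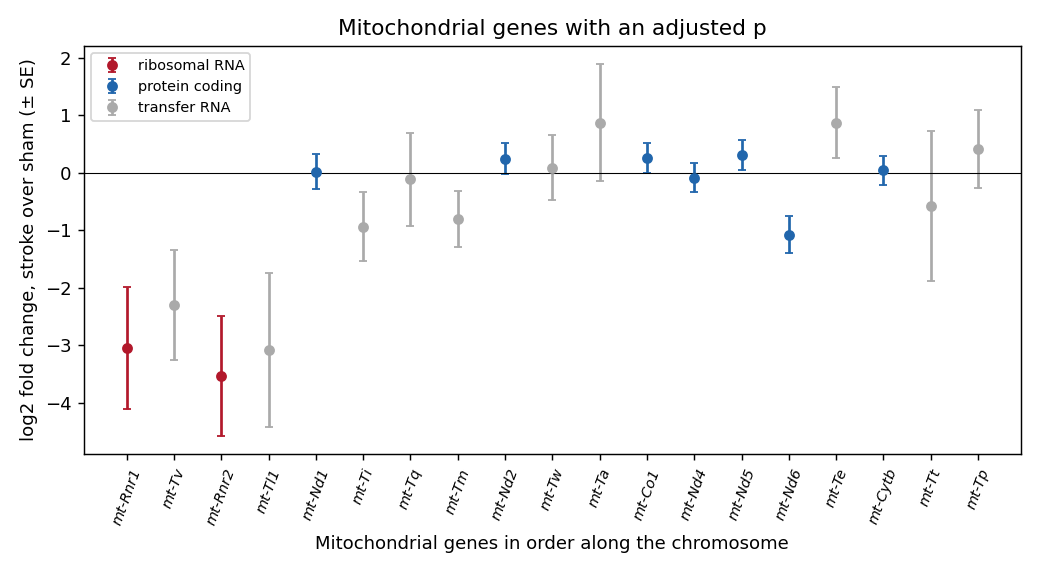
Log2 fold change, stroke over sham, with its standard error (vertical axis), of the 19 mitochondrial genes with an adjusted p, in their order along the mitochondrial chromosome. The 2 ribosomal RNA genes and the 2 transfer RNA genes after them, mt-Tv and mt-Tl1, lie below -2, while 6 of 7 protein-coding genes lie near 0.

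The transfer RNA genes next to the ribosomal RNAs were low in reads. The gene mt-Tv, for valine, lies between mt-Rnr1 and mt-Rnr2. It had 3.46, 5.30 and 4.48 normalized reads in stroke libraries 1, 2 and 3, 13.8 in the deeper sham library and 30.0 in the shallower, without overlap. The gene mt-Tl1, for leucine, lies between mt-Rnr2 and mt-Nd1. It had 12.1, 2.65 and 2.69 in stroke, 97.4 in the deeper sham library and 1.36 in the shallower, so its negative fold change came from 1 sham library. Of the 10 mitochondrial transfer RNA genes with an adjusted p, 0 were called in the authors' DESeq2 table, and their log2 fold changes ran from -3.09 to 0.87 with a median of -0.35.

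The lower values of Rmrp and Rpph1 in stroke also rested on 1 sham library. Rmrp and Rpph1 encode the RNA parts of the nuclear enzymes that cut ribosomal and transfer RNA precursors. Their reads were accepted at a looser tolerance than those of Lars2 and Mir6236 and were not checked with altered fold changes. Rmrp had 20.7, 15.03 and 3.58 normalized reads in stroke libraries 1, 2 and 3, 3.18 in the deeper sham library and 10647 in the shallower. Rpph1 had 31.1, 35.4 and 10.7 in stroke, 2.12 in the deeper sham library and 30302 in the shallower. Without the shallower sham library both would be at or above the sham level in every stroke library. Hbb-bs and Hba-a1, the haemoglobin genes that mark red blood cells, were both called lower, and their summed fitted means were 98.6 in stroke and 1201 in sham. Hba-a1 had 18.2, 39.8 and 8.06 in stroke, 419 in the deeper sham library and 77.7 in the shallower, without overlap between the groups. None of the other 14 cell type markers was called in the authors' deposited table. Fewer cells of a type and less RNA per cell cannot be told apart in bulk samples. The part of these differences between the sham libraries, and of blood, in the values of mt-Rnr1 and mt-Rnr2 was not tested.

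**Figure D4:**
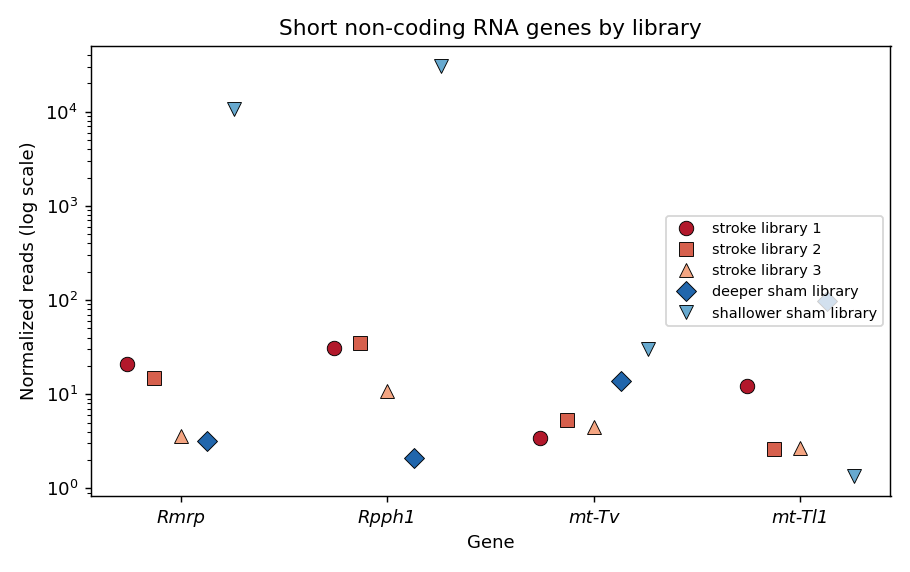
Normalized reads (vertical axis, log scale) of the non-coding RNA genes Rmrp, Rpph1, mt-Tv and mt-Tl1 (horizontal axis), 1 point per library. Rmrp and Rpph1 are high in the shallower sham library alone, mt-Tl1 in the deeper sham library alone, and mt-Tv in both.

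In 3 lists of genes for making and processing ribosomal RNA, which do not hold Rmrp and Rpph1, no gene was called. With the authors' DESeq2 test, 0 of 20 genes of RNA polymerase I transcription passed, with 0 at an unadjusted p below 0.05, and their median log2 fold change was 0.02. Ubtf, which opens the ribosomal gene promoter, and Top1, a topoisomerase, were there at 0.35 (SE 0.20) and at 0.10 (SE 0.27). Of 63 genes of nucleolar processing and modification 0 passed and 5 (7.94%) had an unadjusted p below 0.05. The list's median was 0.13, with 45 of 63 positive (71.4%, against 47.2% of all tested genes), and Ncl, which encodes nucleolin, was at 0.04 (SE 0.26). Rrp1, also of the nucleolus, was at 0.24 (SE 0.21). Of 40 genes of mitochondrial ribosomal RNA transcription and maturation 0 passed and 2 had an unadjusted p below 0.05, with a median of -0.01. Grsf1 and Dhx30, RNA-binding proteins of the mitochondrial RNA granule, were at 0.12 (SE 0.21) and at 0.06 (SE 0.19). The median over all 17420 tested genes was -0.02, and 10.5% of them had an unadjusted p below 0.05.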

How the data were processed

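The authors deposited 1 table of stroke against sham, with no values per library. Per the submitters' processing notes, the authors used the build GRCm38, STAR 2.5.2b, DESeq2 1.14.1, featureCounts 1.5.1 and FastQC. Strand setting, annotation release and the counting of multi-mapped reads were not given in the sources used here. In the file, the deposited signal, per the file headers, averages size-factor-scaled counts over 5 libraries. Each deposited row holds a log2 fold change and its standard error, a Wald statistic (a score), and a p-value with its adjusted value, used at 0.05. Positive fold changes were read as stroke, since 3 of the 5 libraries' single-read genes were positive. Library totals were not given in the sources used here, and the relative size factors, recovered from those genes, were 1.16, 1.13 and 1.12 in stroke and 0.945 and 0.734 in sham.

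Whole reads per library were searched for that give the deposited mean, fold change (to within 1.5e-09 up to a mean of 150, to within 1e-09 for Lars2, Mir6236, CT010467.1 and Gm15564, and to within 5e-05 for Rmrp and Rpph1) and standard error, with Python 3.11.15, numpy 2.4.6, scipy 1.17.1 and numba 0.67.0. Above a mean of 150 the rebuilt dispersion step was a further condition. A unique set was found for 10923 of 12957 genes with a mean of 1 to 150, and for these 6. On simulated data the search returned no wrong set. Those data were made with the same rebuilt fit and size factors, so a mismatch with the authors' run could not show there. Few genes with a high mean were simulated, and the looser search used for Rmrp and Rpph1 was not. Fitted group means come from the deposited mean and fold change. Identifiers matched GENCODE M21 in 51719 of 51912 rows. The planned count test was replaced by the authors' test, as the table holds no counts.

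The members and lists were chosen with earlier results of these data known. Named are the 5 genes, ribosomal RNA rows with a mean of at least 10 and 5 loci known to collect such reads, up to 3 called and 2 uncalled genes per list, 3 tested neighbours on each side, and the 3 genes nearest in profile; Hbb-bs, Hba-a1 and Snap25 come from the marker list, and mt-Nd6, mt-Tv and mt-Tl1 were singled out after their values were seen. The sequence of Mir6236 is not reported here.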

Additional observations from a re-analysis of the deposited data

How the results depend on the processing

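The fold changes of Lars2, Mir6236 and n-R5-8s1 kept their direction with pseudocounts of 0.5, 1 and 5 and without each library in turn. That was fixed beforehand, since every stroke library lay above both sham libraries, so it is no support for them. Without each library in turn they ran from 2.65 to 3.14, from 2.50 to 3.13 and from 2.06 to 2.70 on the log2 scale. Such values could not be had for mt-Rnr1 and mt-Rnr2. Centring on the median of all tested genes moved each of the 5 by 0.02. The genes called lower numbered 88 rather than 137 when adjusted over every gene with a p-value, 33 among genes at 5 CPM or more, and 10 when tested against a fold of 1.5. Those called higher numbered 99, 109 and 17 rather than 135 in the same 3 settings. The call of mt-Rnr2 was lost in all 3 settings, and that of n-R5-8s1 against a fold of 1.5; its mean of 2.09 CPM kept it out of the CPM setting. Lars2 and Mir6236 were called in all 3. Gm26917 lost its call in the first 2, which left 3 called loci of its list rather than 4. Rmrp and Rpph1 turned from -8.56 and -9.15 to 1.76 and 3.10 without the shallower sham library, and to -9.56 and -10.15 without the deeper, a comparison added after seeing the data. The cause was not tested. No list of genes that make or process ribosomal RNA gained a call. No paired analysis was possible because the table holds no values that carry the replicate numbers of the labels.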
